A study of Mus musculus with 12 samples.

Results

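The 9 genes described here encode the enzymes that make serine from a glycolytic intermediate and that pass its carbon to folate. They were chosen by gene symbol, as the genes named *Phgdh*, *Psat1*, *Psph*, *Shmt1*, *Shmt2*, *Mthfd1*, *Mthfd1l*, *Mthfd2* and *Aldh1l2* among the 57180 genes quantified. All 9 passed the minimum of 10 counts over all libraries and were tested. RNA was sequenced from 12 bulk libraries of E14 mouse embryonic stem cells (ESCs), in a line with 4 scramble guide RNAs (Neg) and a line whose guides target *Pcx*, *Me1* and *Me2* (3xKD). Each line has a CRISPR interference (CRISPRi) repressor inserted at the *Tigre* locus and switched on by doxycycline (DOX). Both descend from 1 chosen clone and express their guides at all times. Each line was sequenced as naive ESCs kept in N2B27 medium with 2i and LIF, and as epiblast-like cells (EpiLCs) at day 2 of culture in FAX medium (FGF2, Activin A and the WNT inhibitor XAV939). This gave 4 groups of 3 libraries, named Neg ESCs, 3xKD ESCs, Neg EpiLCs and 3xKD EpiLCs. The labels do not name the drug and the methods of the study give DMSO or DOX, but its description of these libraries elsewhere gives DOX for both lines. The libraries were assigned to groups by their titles, because the labels' cell-type entry follows the line and not the state, reading ESCs in the Neg libraries and EpiLCs in the 3xKD libraries.

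Cells make serine in 3 steps, in which PHGDH oxidizes 3-phosphoglycerate from glycolysis, PSAT1 transfers an amino group from glutamate, and PSPH removes the phosphate. Serine hydroxymethyltransferase then splits serine into glycine and a one-carbon unit bound to folate, by SHMT1 in the cytosol and SHMT2 in mitochondria. In mitochondria MTHFD2, MTHFD1L and ALDH1L2 act in turning that unit into formate or carbon dioxide. In the cytosol MTHFD1 takes formate back into folate for purine, thymidylate and methionine synthesis. Fast-dividing pluripotent cells draw heavily on this cycle, and the transcription factor ATF4 is known to activate several of its genes when amino acids are short. *Pcx* (pyruvate carboxylase), *Me1* and *Me2* (malic enzymes) run the cycle between pyruvate and malate that the study repressed.

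The libraries held between 11221023 and 19652197 estimated counts. Each of the 3 targeted genes was lower in all 3xKD libraries than in all Neg libraries of that state. Their log2 fold changes were −1.14 (*Pcx*), −0.89 (*Me1*) and −0.95 (*Me2*) in ESCs and −1.05, −1.05 and −0.98 in EpiLCs, and thus the line labels held. A list of 10 naive pluripotency markers summed to between 5673 and 5836 CPM (counts scaled to a common library total) in Neg ESCs and between 4270 and 4343 CPM in 3xKD ESCs. In EpiLCs the same list summed to between 469.1 and 489.7 CPM in Neg and between 575.6 and 597.4 CPM in 3xKD, so it was higher in 3xKD there and lower in ESCs. A list of 9 formative markers summed to between 3784 and 4181 CPM in Neg EpiLCs and between 2250 and 2305 CPM in 3xKD EpiLCs, and to between 428.0 and 487.8 CPM in the ESC libraries. The states therefore had the markers of their titles. Sums over lists of primitive endoderm, mesoderm, trophoblast and fibroblast markers stayed at or below 31.7 CPM in every library. Since naive and formative markers also moved with the line, each change below was measured beside a shift of these markers, whose part in it was not tested. In bulk RNA, fewer cells that express a gene and less of its RNA per cell cannot be told apart.

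The promoters of *Phgdh*, *Psat1*, *Psph* and *Mthfd2*, which rose in 3xKD cells of both states, and of *Shmt1*, which fell in 3xKD ESCs, are printed for comparison. Each runs from 250 bases before to 50 bases after a RefSeq start site (GRCm38.p6), on the minus strand and in the direction of transcription. Capitals mark the letters CCAAT (the box bound by NF-Y) and GGGCGG (the GC box, bound by SP1), searched on both strands.

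Phgdh: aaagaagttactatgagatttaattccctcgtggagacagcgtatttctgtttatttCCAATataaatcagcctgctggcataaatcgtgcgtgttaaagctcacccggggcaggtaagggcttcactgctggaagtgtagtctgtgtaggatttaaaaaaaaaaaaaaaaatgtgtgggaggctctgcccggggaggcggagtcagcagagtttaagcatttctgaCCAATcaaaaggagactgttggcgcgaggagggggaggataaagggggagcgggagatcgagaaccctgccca
Psat1: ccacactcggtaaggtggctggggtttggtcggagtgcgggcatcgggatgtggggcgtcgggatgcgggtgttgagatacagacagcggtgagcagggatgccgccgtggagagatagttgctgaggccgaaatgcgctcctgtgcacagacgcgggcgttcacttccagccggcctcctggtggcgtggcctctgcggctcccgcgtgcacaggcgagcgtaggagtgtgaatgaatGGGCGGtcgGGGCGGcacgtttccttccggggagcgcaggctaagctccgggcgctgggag
Psph: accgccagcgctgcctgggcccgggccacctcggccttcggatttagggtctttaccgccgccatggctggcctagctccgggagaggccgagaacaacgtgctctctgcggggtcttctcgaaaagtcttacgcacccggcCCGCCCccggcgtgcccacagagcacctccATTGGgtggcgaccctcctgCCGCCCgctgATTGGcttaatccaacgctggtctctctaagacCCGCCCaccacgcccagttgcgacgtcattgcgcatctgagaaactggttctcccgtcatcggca
Mthfd2: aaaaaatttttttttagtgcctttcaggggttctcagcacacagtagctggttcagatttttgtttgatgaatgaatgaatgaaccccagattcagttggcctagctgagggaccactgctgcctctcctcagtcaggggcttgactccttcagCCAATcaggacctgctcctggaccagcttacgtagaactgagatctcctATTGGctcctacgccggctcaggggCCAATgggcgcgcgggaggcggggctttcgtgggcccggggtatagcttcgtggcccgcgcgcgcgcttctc
Shmt1: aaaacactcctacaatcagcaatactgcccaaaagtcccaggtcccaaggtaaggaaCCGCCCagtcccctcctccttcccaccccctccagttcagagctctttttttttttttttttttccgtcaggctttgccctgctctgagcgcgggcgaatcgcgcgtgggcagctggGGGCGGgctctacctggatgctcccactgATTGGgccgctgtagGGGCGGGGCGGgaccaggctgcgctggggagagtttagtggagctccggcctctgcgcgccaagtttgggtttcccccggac

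These windows lie at chr3:98339920-98340219 (*Phgdh*), chr19:15924573-15924872 (*Psat1*), chr5:129787204-129787503 (*Psph*), chr6:83317555-83317854 (*Mthfd2*) and chr11:60811216-60811515 (*Shmt1*). The promoter table held 9 windows for 8 of the 9 genes, with a pair of windows for *Psat1*, of which the printed one has its RefSeq start site at the 5′ end of the leading coding transcript. *Aldh1l2* had no entry. A CCAAT box was found in 6 of these 9 windows, against 37.41% of all 32851 promoters, and a GC box in 5 of 9 windows, against 35.66%. The *Mthfd2* window held 3 CCAAT boxes and the *Phgdh* window 2, both without a GC box, whereas the *Shmt1* window held 4 GC boxes and 1 CCAAT box. The printed *Psat1* window held 2 GC boxes and no CCAAT box, and its other window held 3 CCAAT boxes. The element TGATGNAA, to which ATF4 binds with C/EBP factors, and the E-box CACGTG, to which MYC binds, were in none of the 9 windows and in 3.97% and 7.15% of all promoters. The leading coding transcript of *Psph* in GENCODE begins at −196 from the RefSeq start site, upstream of all 5 marked boxes, so these boxes lie within that transcript's span. For the other printed windows it begins between −21 and 0. The windows cover the RefSeq start sites only, so these counts describe the printed letters and not sites elsewhere in the genes.

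In both states, the 3 genes of serine synthesis and the mitochondrial dehydrogenase gene *Mthfd2* rose in 3xKD cells, and 8 of the 9 genes had every 3xKD library above every Neg library. A gene is called changed here when edgeR's quasi-likelihood test gave a Benjamini-Hochberg adjusted p under 0.01 over the 25446 genes tested and the log2 fold change was above 0.58 in size. By this rule 4 of the 9 genes rose and 1 fell in ESCs, against 8.50% of all genes called higher and 6.76% called lower. In EpiLCs 4 rose and none fell, against 7.88% and 5.35%. Without the fold limit and with an adjusted p under 0.05, 8 were higher in 3xKD ESCs and 7 in 3xKD EpiLCs. The share of all genes at that looser limit was not counted, so these counts cannot be set against the shares above. The 3xKD libraries lay entirely above the Neg libraries for 25.2% of all genes in ESCs and 24.1% in EpiLCs, and entirely below for 23.8% and 23.1%, where *Shmt1* was the 1 gene of the 9. The study displayed *Phgdh*, *Psat1* and *Shmt2* from these same libraries, so their direction is not independent evidence.

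**Figure D1:**
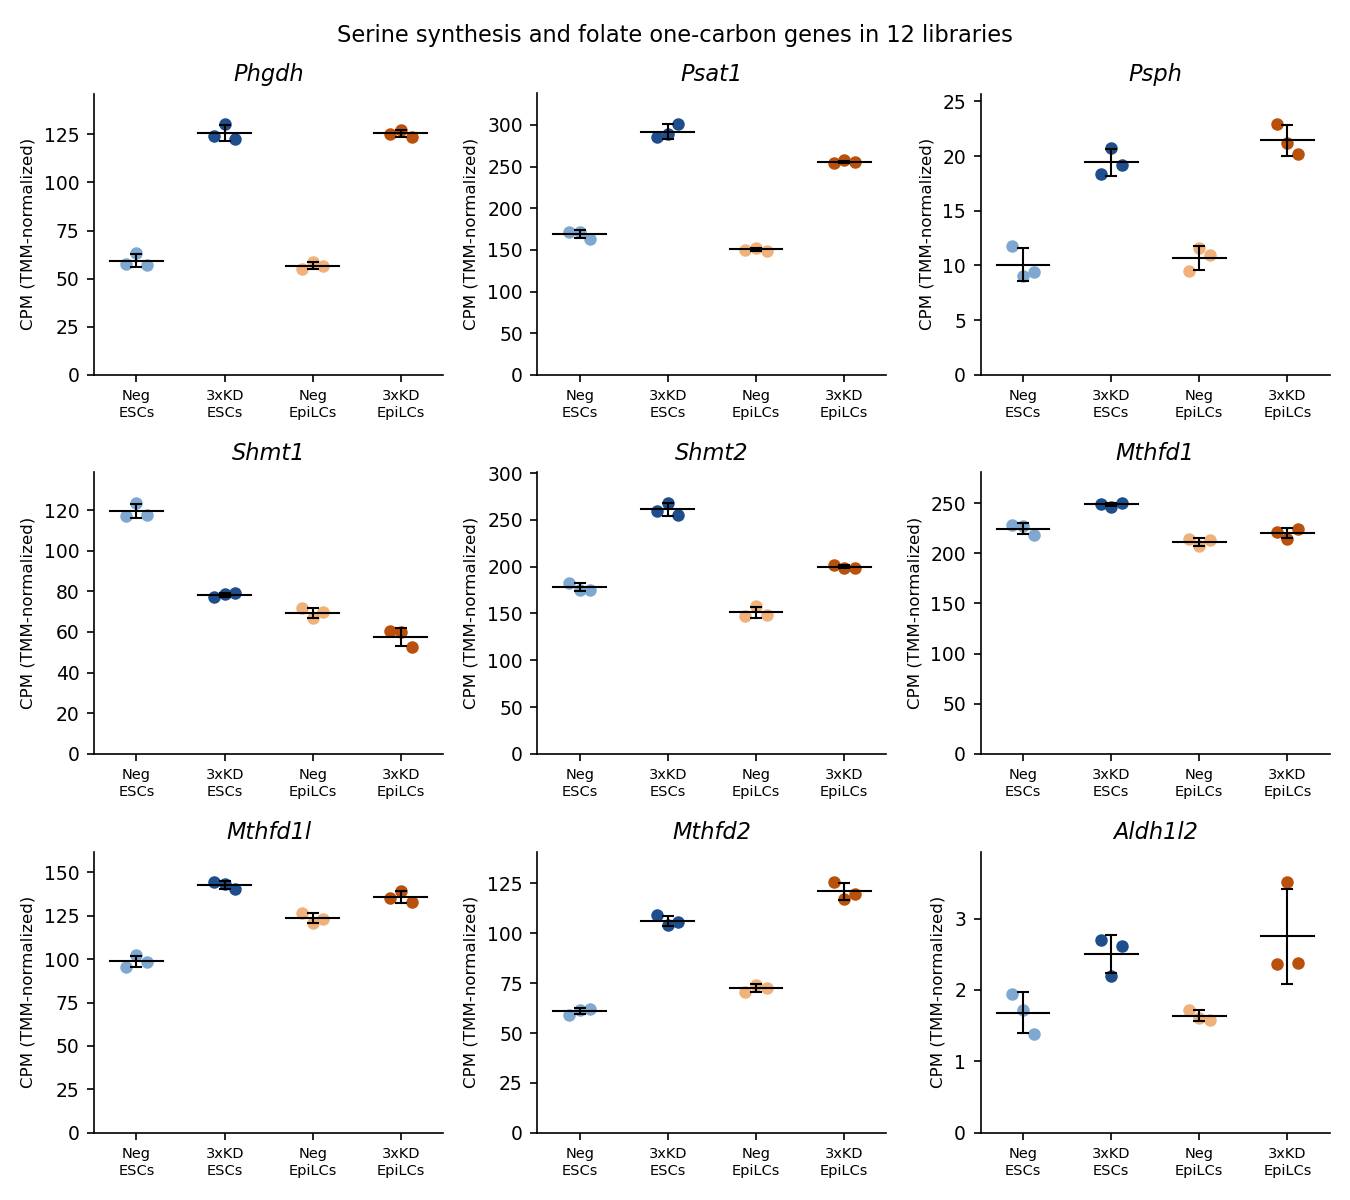
CPM of each of the 9 genes (vertical axes from 0, TMM-normalized) in the 12 libraries, by group. Points are libraries, horizontal lines are group means and bars are 1 SD over 3 libraries; *Phgdh* lay between 54.88 and 63.45 CPM in the Neg libraries and between 122.5 and 130.6 CPM in the 3xKD libraries.

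*Phgdh*, the first enzyme of the pathway, had 57.4, 63.5 and 57.3 CPM in the Neg ESC libraries and 124.0, 130.6 and 122.5 CPM in the 3xKD ESC libraries. In EpiLCs it had 54.9, 58.6 and 56.6 CPM in Neg and 125.2, 127.5 and 123.8 CPM in 3xKD. The 6 Neg libraries thus lay together whatever their state, and so did the 6 3xKD libraries. For *Phgdh* this was a log2 fold change of 1.08 in ESCs (standard error 0.0449, adjusted p = 2e-11) and 1.15 in EpiLCs (0.0449, adjusted p = 1.4e-11), both from edgeR's quasi-likelihood test, which are folds of 2.12 and 2.21. No other gene of the 9 had a larger value in either state.

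*Psat1*, the aminotransferase, had 170.9, 171.9 and 163.5 CPM in Neg ESCs and 285.1, 289.6 and 301.6 CPM in 3xKD ESCs. In EpiLCs it had 150.4, 152.1 and 149.1 CPM in Neg and 254.7, 257.4 and 255.6 CPM in 3xKD. The Neg and 3xKD libraries were far apart in each state, and within each line the EpiLC libraries lay below the ESC libraries. Its log2 fold change was 0.79 in ESCs (standard error 0.032) and 0.77 in EpiLCs (0.0322), a fold of 1.73 and 1.70. The authors' transcript estimates for *Psat1* were spread over 7 transcripts, 3 of them protein-coding. The transcript ENSMUST00000162053 took 49.0% ± 3.62 (SD, n = 3) of the gene's TPM (its level per transcript length, scaled to a common total) in Neg ESCs and 38.0% ± 1.14 in 3xKD ESCs, and 51.6% ± 4.37 and 34.3% ± 2.27 in Neg and 3xKD EpiLCs. The transcript ENSMUST00000025542 took 31.2% ± 4.38 and 38.4% ± 1.14 in ESCs and 39.5% ± 2.34 and 39.4% ± 4.54 in EpiLCs. The short coding transcript ENSMUST00000162416 took 13.02% ± 5.94 and 14.4% ± 1.15 in ESCs and 2.31% ± 4.01 and 13.8% ± 1.96 in EpiLCs. These shares come from single-end reads and were not tested.

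*Psph*, the phosphatase of the last step, was the least expressed of the 3 synthesis genes. It had 11.8, 9.02 and 9.43 CPM in Neg ESCs and 18.3, 20.7 and 19.2 CPM in 3xKD ESCs, and 9.49, 11.6 and 10.9 CPM in Neg EpiLCs and 23.0, 21.2 and 20.2 CPM in 3xKD EpiLCs. The groups did not overlap, on between 131 and 370 counts per library. The log2 fold change was 0.96 in ESCs (standard error 0.104, adjusted p = 1.1e-06 from edgeR) and 1.01 in EpiLCs (0.102, adjusted p = 5.4e-07). With transcript-length offsets, which correct each library for the length of the transcripts a gene used, the change of *Psph* in ESCs was 0.60 (adjusted p = 0.036) and was no longer called. The 5′ end of *Psph* overlaps *Cct6a* on the opposite strand, a chaperonin gene with a mean of 557 CPM.

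The pair of serine hydroxymethyltransferase genes had opposite signs in 3xKD cells. *Shmt1*, the cytosolic enzyme, had 117.3, 123.7 and 117.8 CPM in Neg ESCs and 77.0, 78.5 and 79.2 CPM in 3xKD ESCs. In EpiLCs it had 71.7, 66.8 and 69.9 CPM in Neg and 60.4, 60.1 and 52.6 CPM in 3xKD. Every 3xKD library lay below every Neg library of its state, and the gap was wider in ESCs. The log2 fold change was −0.61 in ESCs (standard error 0.0488, adjusted p = 3.1e-08 from edgeR), a call lost without replicate 1 of 3xKD ESCs (−0.571), and −0.27 in EpiLCs (0.0507, adjusted p = 4.1e-04), where it is below the fold limit.

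*Shmt2*, the mitochondrial enzyme, had 182.8, 175.6 and 175.2 CPM in Neg ESCs and 259.6, 268.5 and 255.6 CPM in 3xKD ESCs, and 147.6, 158.1 and 148.0 CPM in Neg EpiLCs and 201.7, 198.9 and 199.1 CPM in 3xKD EpiLCs. The 3xKD libraries lay above the Neg libraries in each state without overlap. The log2 fold change was 0.56 in ESCs (standard error 0.0348, adjusted p = 1.8e-09 from edgeR) and 0.40 in EpiLCs (0.035, adjusted p = 9.5e-08), so the adjusted p passed and the fold limit was missed. The ESC value passed the limit without replicate 1 of 3xKD ESCs (0.589), replicate 1 or 2 of Neg EpiLCs (0.586 and 0.585) or replicate 3 of 3xKD EpiLCs (0.585).

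**Figure D2:**
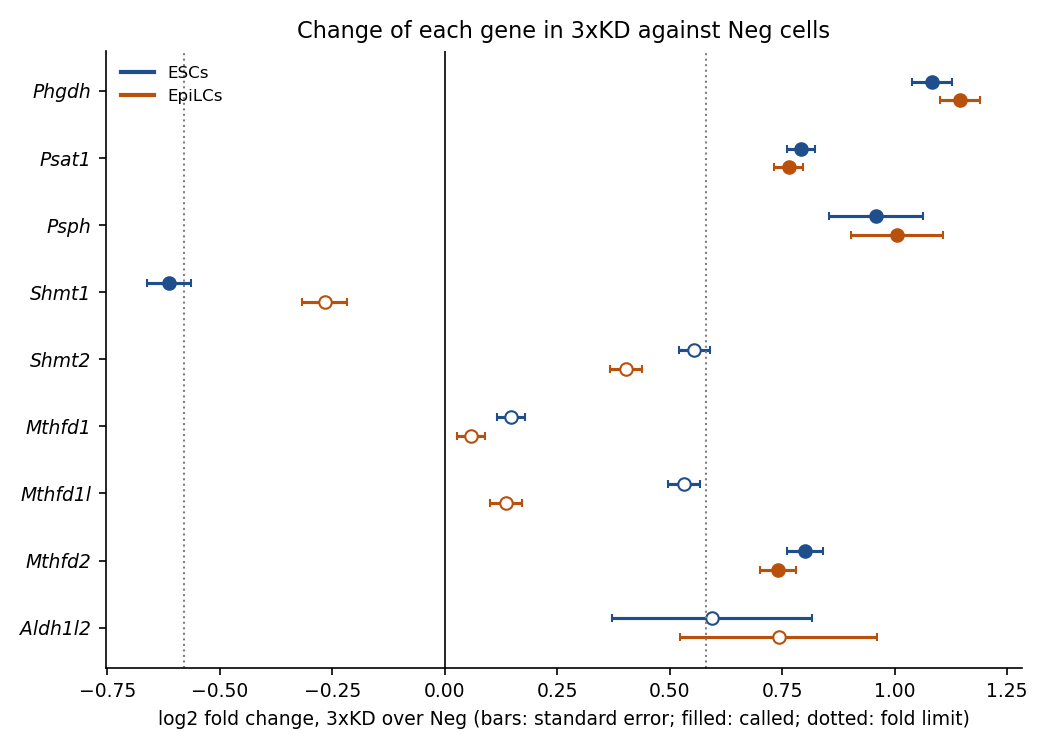
Log2 fold change of each gene between 3xKD and Neg cells (horizontal axis) in ESCs (blue) and EpiLCs (orange), with 1 standard error from edgeR. Filled points are called and dotted lines mark a log2 fold change of 0.58 in size; *Phgdh*, *Psat1*, *Psph* and *Mthfd2* were called higher in both states and *Shmt1* was the 1 gene below 0.

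*Mthfd2*, the mitochondrial dehydrogenase and cyclohydrolase, had 59.1, 61.4 and 62.3 CPM in Neg ESCs and 109.0, 104.0 and 105.8 CPM in 3xKD ESCs. In EpiLCs it had 70.3, 74.2 and 72.8 CPM in Neg and 125.9, 117.4 and 119.9 CPM in 3xKD. It was higher in 3xKD than in Neg and higher in EpiLCs than in ESCs, with no overlap in either direction. *Mthfd2* had a log2 fold change of 0.80 in ESCs (standard error 0.0401, adjusted p = 1.5e-10 from edgeR) and 0.74 in EpiLCs (0.0393, adjusted p = 3.3e-10).

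*Mthfd1l*, the mitochondrial formate-tetrahydrofolate ligase, had 95.6, 102.2 and 98.5 CPM in Neg ESCs and 144.7, 143.5 and 140.5 CPM in 3xKD ESCs. In EpiLCs it had 126.8, 120.8 and 123.2 CPM in Neg and 135.5, 139.5 and 132.9 CPM in 3xKD. The 3xKD and Neg libraries were well apart in ESCs and close together in EpiLCs, where the Neg libraries were higher than in ESCs. The log2 fold change was 0.53 in ESCs (standard error 0.0356, adjusted p = 4.1e-09 from edgeR) and 0.14 in EpiLCs (0.0352, adjusted p = 0.0048), below the fold limit in both.

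*Mthfd1*, the trifunctional cytosolic enzyme, varied least among the 9 genes. It had 224.6 ± 5.63 CPM (SD, n = 3) in Neg ESCs, 248.7 ± 1.93 CPM in 3xKD ESCs, 211.3 ± 3.79 CPM in Neg EpiLCs and 220.0 ± 5.17 CPM in 3xKD EpiLCs. Its log2 fold change was 0.15 in ESCs (95% interval 0.08 to 0.21, adjusted p = 0.001 from edgeR) and 0.06 in EpiLCs (−0.01 to 0.13, adjusted p = 0.17). The 3xKD and Neg libraries did not overlap in either state, but in EpiLCs the highest Neg and the lowest 3xKD library were 213.8 and 214.4 CPM.

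*Aldh1l2*, the mitochondrial formyltetrahydrofolate dehydrogenase, had few reads, with between 22 and 55 counts per library. It had 1.95, 1.72 and 1.38 CPM in Neg ESCs, 2.703, 2.20 and 2.61 CPM in 3xKD ESCs, 1.73, 1.61 and 1.58 CPM in Neg EpiLCs and 2.36, 3.52 and 2.37 CPM in 3xKD EpiLCs. The 3xKD libraries were the higher ones in each state, and 1 of the 3xKD EpiLC libraries was well above the other two. The log2 fold change was 0.59 in ESCs (95% interval 0.12 to 1.07, adjusted p = 0.043 from edgeR) and 0.74 in EpiLCs (0.28 to 1.21, adjusted p = 0.012), which is not a call at this depth. The EpiLC value was called with library size alone (0.80, adjusted p = 0.0075) and with edgeR's own expression filter (0.75, adjusted p = 0.0074).

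The order of the genes was set by TPM in protein-coding transcripts, which corrects for length. *Psat1*, *Shmt2* and *Mthfd1* were at the top in every group, with means between 50.6 and 53.5 TPM in Neg ESCs, where their ranges overlapped. *Phgdh*, *Mthfd1l*, *Mthfd2* and *Shmt1* followed in Neg ESCs at 22.8 ± 5.44, 18.2 ± 3.76, 17.97 ± 2.43 and 17.1 ± 3.71 TPM (SD, n = 3), and neighbours in this order overlapped as well. *Psph* was lower, at 4.26 ± 0.672 TPM, and *Aldh1l2* was last, at 0.198 ± 0.067 TPM, both apart from their neighbours. In 3xKD ESCs *Psat1* led at 83.4 ± 10.7 TPM and *Phgdh* reached 44.2 ± 5.72 TPM, overlapping *Mthfd1* at 51.3 ± 6.14 TPM, while *Shmt1* was apart from *Mthfd1l* above it and from *Psph* below it at 10.3 ± 1.35 TPM. In 3xKD EpiLCs *Shmt1* stood at 9.26 ± 1.22 TPM and overlapped *Psph* at 10.4 ± 2.96 TPM. The SDs include shifts of whole libraries, since TPM were not rescaled between libraries.

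The choice of transcripts decided where *Shmt1* stood. Over all its transcripts *Shmt1* had 90.2 TPM in Neg ESCs, the first place among the 9 genes and above *Shmt2* at 77.3 TPM. Only 18.9% of that was in protein-coding transcripts, and most of the rest was in transcripts without a defined coding sequence, such as ENSMUST00000173698 of 415 bases. Over the 4 groups the coding share was between 18.9% and 21.9%. In coding transcripts *Shmt2* had 3.00 ± 0.367 times the TPM of *Shmt1* in Neg ESCs, 6.68 ± 0.474 in 3xKD ESCs, 4.63 ± 1.02 in Neg EpiLCs and 6.43 ± 0.334 in 3xKD EpiLCs (mean ± SD of 3 libraries). The ratio was higher in every 3xKD library than in every Neg library, with a highest Neg value of 5.80 and a lowest 3xKD value of 6.05. Reads in coding transcripts were between 57.5% and 61.2% of the *Shmt1* reads in the 4 groups, and *Shmt1* in coding transcripts had 17.1 TPM in Neg ESCs and 10.3 TPM in 3xKD ESCs. Part of *Shmt1* overlaps *Top3a* on the same strand and *Smcr8* on the opposite strand, at means of 37.5 and 174 CPM.

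**Figure D3:**
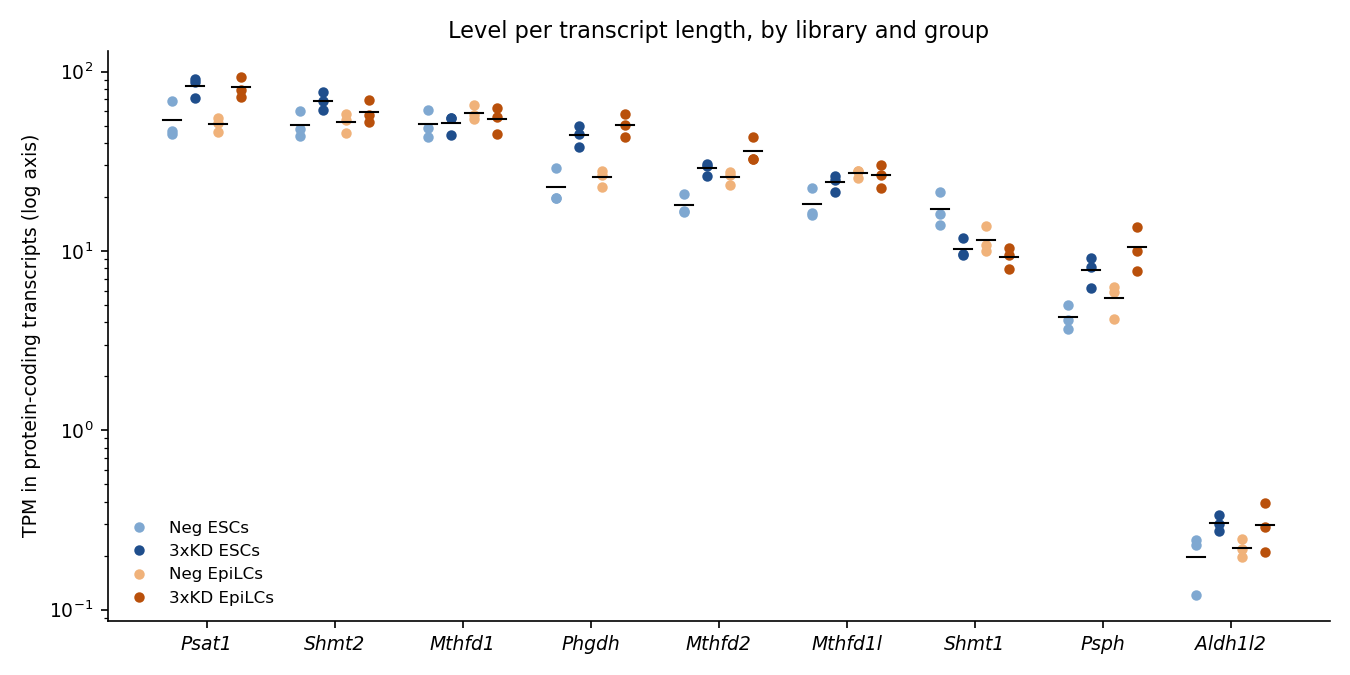
TPM in protein-coding transcripts (log axis) of the 9 genes in each library, ordered by their mean over the groups. Points are libraries and short lines are group means; *Aldh1l2* lay below 1 TPM in every library and *Shmt1* fell from 17.1 TPM in Neg ESCs to 10.3 TPM in 3xKD ESCs.

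Between EpiLCs and ESCs, *Shmt1* in Neg cells was the one call among the 9 genes. In Neg cells 1 of them was called lower and none higher, against 11.0% and 9.78% of all genes, and in 3xKD cells none was called in either direction, against 9.32% lower and 9.42% higher. Of the 9 values, 4 in each line were below 0 with an adjusted p under 0.05, which were those of *Psat1*, *Shmt1*, *Shmt2* and *Mthfd1*. The sign of *Mthfd1* depended on the processing. With transcript-length offsets in edgeR it was 0.031 in Neg (adjusted p = 0.78) and 0.157 in 3xKD (adjusted p = 0.1). Above 0 at that limit were *Mthfd1l* and *Mthfd2* in Neg and *Mthfd2* in 3xKD. The share of all genes at that limit was not counted. *Shmt1* fell in Neg EpiLCs by 0.78 on the log2 scale (standard error 0.0492, adjusted p = 8e-10 from edgeR), from a mean of 119.6 to 69.5 CPM. In 3xKD cells its value was −0.44 (standard error 0.0504), from a level that was already lower in ESCs. *Shmt2* had −0.23 in Neg and −0.39 in 3xKD, and *Psat1* had −0.16 and −0.19. *Mthfd2* had 0.25 and 0.19, the one gene with positive values past an adjusted p of 0.01 in both lines. *Phgdh* had −0.07 (95% interval −0.17 to 0.03) in Neg and −0.002 (−0.09 to 0.09) in 3xKD.

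The change in 3xKD cells differed between the states for 2 of the 9 genes, *Shmt1* and *Mthfd1l*, by the interaction term of the same model at an adjusted p under 0.01, which 10% of all genes passed. For *Shmt1* the change in EpiLCs minus that in ESCs was 0.35 (standard error 0.0704, adjusted p = 0.0024 from edgeR), and with transcript-length offsets it was 0.61 with an adjusted p of 0.14. For *Mthfd1l* the difference was −0.40 (standard error 0.0501, adjusted p = 3.3e-05). For the serine synthesis genes the difference was 0.06 (95% interval −0.07 to 0.20) for *Phgdh*, −0.03 (−0.12 to 0.07) for *Psat1* and 0.05 (−0.26 to 0.36) for *Psph*, and for *Mthfd2* it was −0.06 (−0.18 to 0.06). *Shmt2* had −0.15 (−0.26 to −0.05, adjusted p = 0.045), which did not pass. The same term passed for 9 of the 10 naive markers and 6 of the 9 formative markers, whose part in these differences was not tested.

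**Figure D4:**
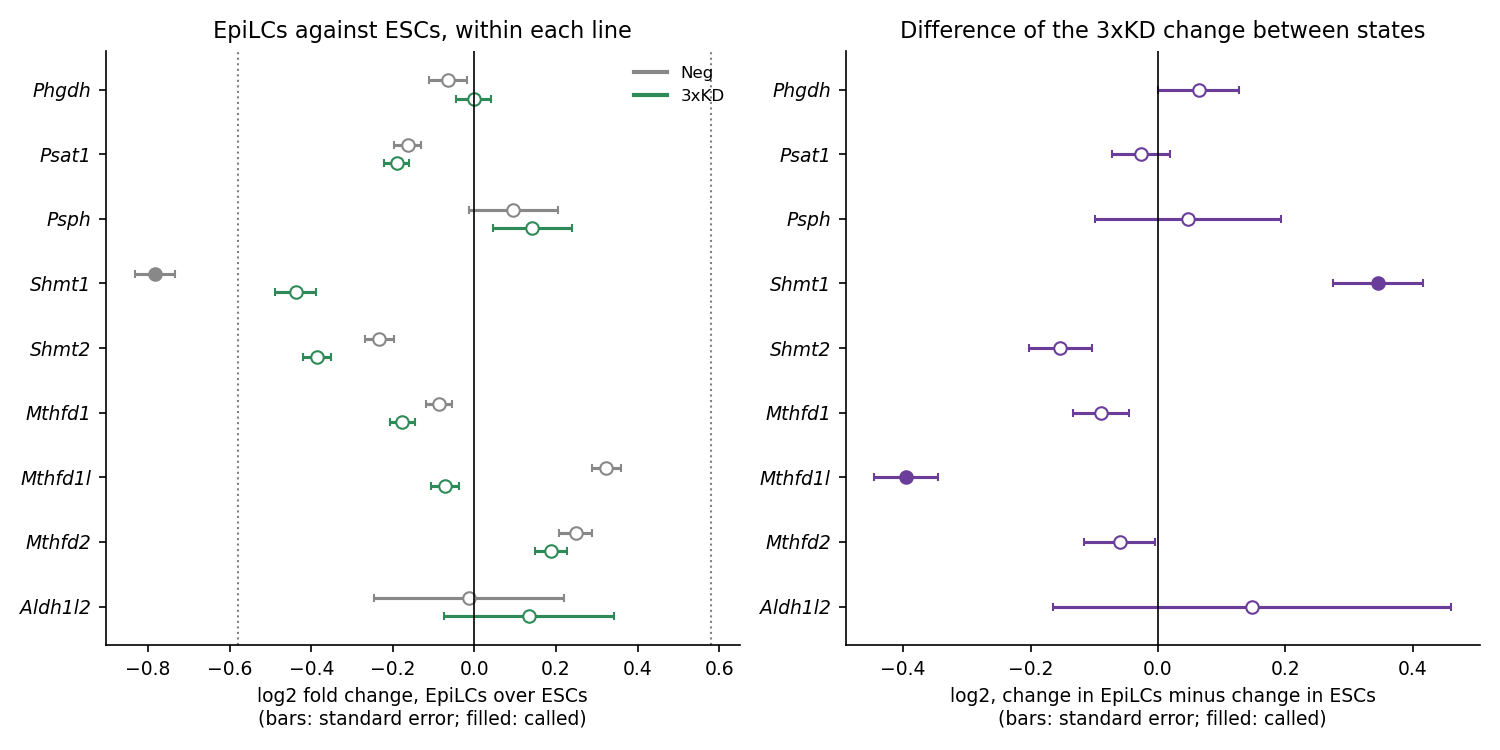
Left, log2 fold change between EpiLCs and ESCs of each gene in Neg (grey) and 3xKD (green) cells, with dotted lines at 0.58 in size. Right, the change in 3xKD EpiLCs minus that in 3xKD ESCs on the log2 scale; bars are 1 standard error and filled points are called, which are *Shmt1* in Neg on the left and *Shmt1* and *Mthfd1l* on the right.

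The 9 genes lie on 7 chromosomes in GRCm39, at chr3:98220484-98255047 (*Phgdh*), chr19:15882039-15924701 (*Psat1*), chr5:129841925-129864513 (*Psph*), chr11:60661185-60708167 (*Shmt1*), chr10:127352266-127358323 (*Shmt2*), chr12:76301984-76366588 (*Mthfd1*), chr10:3922870-4117081 (*Mthfd1l*), chr6:83282673-83302890 (*Mthfd2*) and chr10:83323314-83370005 (*Aldh1l2*). The median log2 fold change between 3xKD and Neg of the genes on each of these chromosomes whose mean reached 1 CPM was between −0.05 and 0.04 in either state. The pseudogene *Phgdh-ps1* took 4.09 counts in all libraries. Only symbols that begin with the symbol of one of the 9 genes were searched, so copies under other names were not looked for. *Mthfd2l*, the paralogue of *Mthfd2*, had 574 counts over all libraries and values of 0.35 in ESCs and −0.38 in EpiLCs for the log2 fold change (adjusted p = 0.22 and 0.15 from edgeR).

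The genes with the pattern most like *Phgdh* over the 12 libraries, by Pearson's r of log2 CPM among the 9633 genes whose mean reached 10 CPM, were *Slc1a4* (r = 0.9972), *Dop1b* (0.9953), *Cotl1* (0.9952), *Pck2* (0.9943) and *Pgk1* (0.9939). *Slc1a4* encodes a transporter of serine and other neutral amino acids, PCK2 is the mitochondrial phosphoenolpyruvate carboxykinase and PGK1 acts in glycolysis just before the branch to serine. *Psat1* came at place 61 (r = 0.976), *Psph* at 133 and *Mthfd2* at 198. For *Mthfd2* the nearest were *Zfp773* (0.9936), *Gm15787* (0.9934), *Smad3* (0.993), *Aplp1* (0.9914) and *Rdh11* (0.9903), and *Phgdh* came at place 202. The libraries form 4 groups that these values share, so the correlations describe group means more than single libraries and carry no test. Between *Shmt1* and *Shmt2* r was −0.08, and between *Shmt2* and *Mthfd1* it was 0.895.

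Around these genes, *Slc1a4*, which carries serine into the cell, rose in 3xKD cells of both states, and *Mat2a*, which uses methionine, fell in both. Of 17 other folate genes, 2 rose and 2 fell in ESCs and 1 rose and 1 fell in EpiLCs. Of all genes, 8.50% were called higher and 6.76% lower in ESCs and 7.88% and 5.35% in EpiLCs. With transcript-length offsets the calls among these folate genes came to 2 for ESCs and 1 for EpiLCs, and DESeq2 also called 1 in EpiLCs. The medians of −0.07 and −0.09 stood beside medians of 0.03 over all genes tested in each state. *Slc46a1*, the proton-coupled folate transporter, fell in ESCs by 0.84 on the log2 scale (standard error 0.123), from 12.01 ± 0.897 to 6.72 ± 1.25 CPM. The genes called higher, *Gart*, a purine synthesis enzyme that uses formyl folate, at 0.67 and *Aldh1l1*, the cytosolic counterpart of *Aldh1l2*, at 0.59, were named after their values were seen. In EpiLCs *Aldh1l1* rose by 0.65 (0.152) and *Folr2*, a folate receptor near 1 CPM, fell by 1.22 (0.332).

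Of 17 genes of serine transport and use, 16 were tested (*Sds* had too few counts), with 5 higher and 3 lower in 3xKD ESCs and 5 higher and 1 lower in 3xKD EpiLCs. These counts stand against 8.50% and 6.76% of all genes in ESCs and 7.88% and 5.35% in EpiLCs, and with transcript-length offsets 5 were called in ESCs. The median was −0.02 in ESCs and 0.32 in EpiLCs. *Slc1a4* had 25.6 ± 1.35 CPM in Neg ESCs and 66.4 ± 1.92 CPM in 3xKD ESCs, and 24.9 ± 2.26 and 64.4 ± 1.55 CPM in EpiLCs, a log2 fold change of 1.37 in each state (standard errors 0.0603 and 0.0602). *Slc6a9*, a glycine transporter, rose from 2.67 ± 0.525 to 10.3 ± 0.803 CPM in ESCs, by 1.98 (0.162), and by 1.25 (0.142) in EpiLCs, also called. *Sfxn3*, of the sideroflexins that carry serine into mitochondria, rose in EpiLCs by 1.29 (0.222), from 1.35 ± 0.289 to 3.31 ± 1.02 CPM. It was called higher in ESCs too, at 0.71 (0.143). *Sptlc1*, which joins serine to palmitoyl-CoA for sphingolipids, was the one gene called lower in EpiLCs (−1.05) and, with *Sfxn2* and *Ptdss1*, one of the 3 called lower in ESCs (−1.06, −0.96 and −0.60), and these were named after their values were seen.

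Of 13 methionine cycle genes, 2 rose and 1 fell in ESCs and 3 rose and 2 fell in EpiLCs, against 8.50% and 6.76% of all genes in ESCs and 7.88% and 5.35% in EpiLCs. The medians were 0.08 and −0.07. *Mat2a*, which makes the methyl donor S-adenosylmethionine from methionine, fell from 260.6 ± 14.4 to 124.6 ± 2.59 CPM in ESCs (−1.07, standard error 0.0438) and from 353.4 ± 17.8 to 182.4 ± 3.05 CPM in EpiLCs (−0.95, 0.0429). *Ahcyl1* rose in ESCs from 122.5 ± 3.27 to 202.3 ± 3.17 CPM (0.72, 0.0363) and was called higher in EpiLCs too (0.66, 0.0366). *Bhmt* was called higher in EpiLCs but had at most 0.185 CPM in any Neg EpiLC library and at most 0.703 CPM in any 3xKD EpiLC library, so the size of its fold depends on the count added before the logarithm.

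Of 21 genes comprising *Atf4* and its known targets other than the 9, 11 rose and none fell in 3xKD ESCs, and 10 rose and none fell in 3xKD EpiLCs. These counts stand against the 8.50% and 7.88% of all genes called higher, and the medians of the list were 0.66 and 0.56. *Ddit3*, a stress-induced transcription factor, had 12.3 ± 0.409 CPM in Neg ESCs and 48.9 ± 0.608 CPM in 3xKD ESCs, and *Nupr1*, a stress-induced chromatin protein, had 7.42 ± 0.70 and 29.5 ± 0.715 CPM, each a log2 fold change of 1.99. In EpiLCs *Nupr1* rose by 2.20 (standard error 0.109) and *Trib3*, a pseudokinase that restrains ATF4, by 1.76 (0.081). *Ddit3* was called higher in EpiLCs too, at 1.32 (0.0597), and *Trib3* in ESCs, at 1.58 (0.0833). *Asns*, asparagine synthetase and a standard ATF4 target, had opposite signs, with −0.25 in ESCs, not called, and 1.14 in EpiLCs, called higher. *Atf4* itself had 0.40 in ESCs and 0.17 in EpiLCs, below the fold limit. *Asns* and *Atf4* were named after their values were seen.

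**Figure D5:**
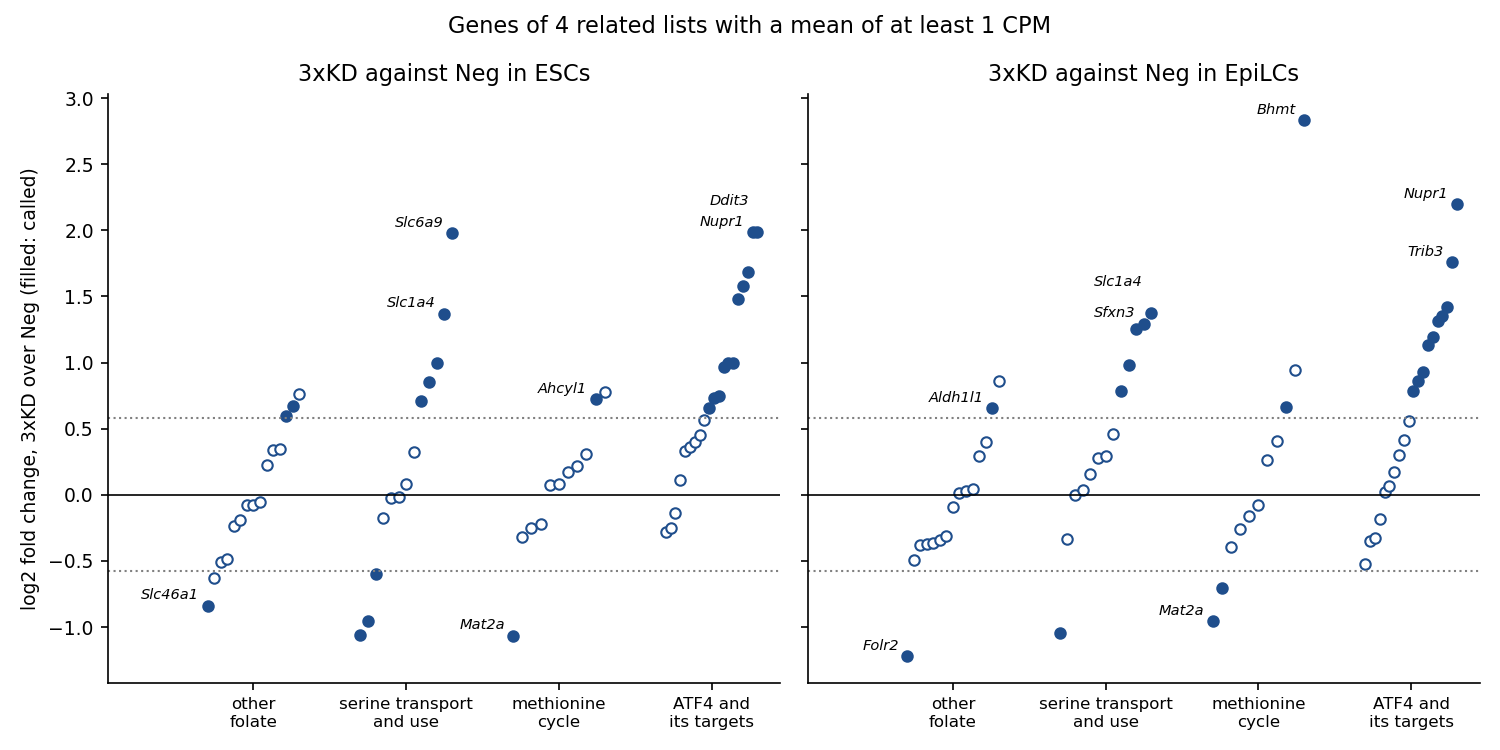
Log2 fold change between 3xKD and Neg cells of the genes in the 4 related lists whose mean reached 1 CPM, in ESCs (left) and EpiLCs (right), sorted within each list, with 1 folate gene not plotted. Each point is a gene, filled points are called and dotted lines mark 0.58 in size; 11 genes of the ATF4 list were called higher in ESCs and 10 in EpiLCs, with none called lower.

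Across the same lists, Neg EpiLCs against Neg ESCs gave 3 higher and 1 lower among the other folate genes, 1 and 7 among the genes of serine transport and use, 1 and 2 in the methionine cycle and 6 and 3 in the ATF4 list, against 9.78% of all genes higher and 11.0% lower. With transcript-length offsets 5 genes of serine transport and use were called here. In 3xKD cells the same counts were 1 and 1, 0 and 4, 1 and 2, and 2 and 4, against 9.42% and 9.32%. The difference of the 3xKD change between the states passed for 4 of 17 other folate genes, 1 of 16 genes of serine transport and use, 3 of 13 methionine cycle genes and 8 of 21 genes of the ATF4 list, where 6 of the 8 had the smaller value in EpiLCs. Of all genes 10% passed.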

How the data were processed

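Total RNA was depleted of ribosomal RNA and sequenced as directional single-end libraries, per the labels' protocol, although their molecule field gives polyA RNA. The authors trimmed reads with Trim Galore 0.6.7, aligned them with STAR 2.7.9a to GRCm39 and quantified transcripts with Salmon 1.10.1. The deposited tables give estimated counts, which are not normalized, TPM, and the effective length of each transcript, used here as a signal for length offsets only. For each gene the deposited estimated counts of its transcripts were added up and rounded here. TMM factors and edgeR 4.0.16 were then used (R 4.3.3, quasi-likelihood, 1 model of 4 groups, genes with at least 10 counts in total, 25446 of 57180). A gene was called where its Benjamini-Hochberg adjusted p was under 0.01 and its log2 fold change exceeded 0.58 in size; the difference between states had no fold limit. CPM are TMM-normalized. A standard error is the log2 fold change divided by the square root of F. The labels call replicates no more than that, and the study's methods give biological triplicates as the usual minimum. The p-values measure the spread between these libraries. Since the libraries come from 2 lines, the p-values do not cover the spread between separately made lines with the same guides. Other differences between the 2 lines cannot be told apart from the repression. No replicate pair looked like the same library deposited again, since chi-square divided by its degrees of freedom was between 2.84 and 16.4.

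The 9 genes and all lists were chosen with earlier results of these data known. Named besides the 9 are the repressed genes, the 2 called genes with the largest change per related list and state (mean of at least 1 CPM), the 5 genes nearest to *Phgdh* and to *Mthfd2*, copies and overlapping genes; 1 gene that this rule names is not reported here. Gene positions follow GENCODE vM39, which placed 99.34% of the tested genes. The model was also run on simulated counts, and no result here rests on that run. The alternatives tried were DESeq2 1.42.0, upper-quartile or RLE factors, no factors beyond library size, other filters, transcript-length offsets, a replicate block, robust spread, only the groups compared, other limits and each library left out.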

Additional observations from a re-analysis of the deposited data

Results flagged for a closer look

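The change in 3xKD cells differed between EpiLCs and ESCs for 2 of the 9 genes, by the interaction term of the edgeR model. For *Shmt1* the change in EpiLCs minus that in ESCs was 0.345 on the log2 scale, with −0.61 in ESCs and −0.27 in EpiLCs, and all 3 libraries of 3xKD lay below all 3 of Neg in both states. For *Mthfd1l* the difference was −0.395, with 0.53 in ESCs and 0.14 in EpiLCs, and all 3xKD libraries lay above all Neg libraries in both states. No explanation of either difference was tested.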

How the results depend on the processing

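Of 981 values of single genes under an alternative, 933 kept their direction and their side of the limits, 3 lost a call, 6 gained one and 39 changed sign, all of these in values that were not called. Those that changed sign include *Mthfd1* in EpiLCs against ESCs, whose adjusted p in the main edgeR fit was under 0.05 in both lines. With the fold limit dropped and the adjusted p limit at 0.05, 8 of the 9 genes were higher in 3xKD ESCs, 7 higher and 1 lower in 3xKD EpiLCs, 2 higher and 4 lower in Neg EpiLCs against ESCs, and 1 higher and 4 lower in 3xKD EpiLCs against ESCs. With a fold limit of 1, 1 and 2 were higher in 3xKD ESCs and EpiLCs, and 0 were lower in 3xKD ESCs or in Neg EpiLCs. The shares of all genes at these other limits were not counted. Leaving out each library gave 4 to 5 genes higher and 0 to 1 lower in 3xKD ESCs, with the lower call lost without replicate 1 of 3xKD ESCs. Transcript-length offsets left 1 difference between states and called 2 other folate genes in ESCs and 1 in EpiLCs (1 with DESeq2 too), and 5 genes of serine transport and use in 3xKD ESCs and 5 in Neg EpiLCs against ESCs.

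Signs changed as follows, and the cause was not tested. In Neg EpiLCs against ESCs, *Phgdh* was 0.017 with upper-quartile factors and 0.015 with offsets, *Psph* −0.11 and *Mthfd1* 0.031 with offsets, and *Aldh1l2* 0.003 with DESeq2, 0.005 with RLE factors and 0.068 with upper-quartile factors. In 3xKD EpiLCs against ESCs, *Phgdh* was 0.027 with DESeq2 and with RLE factors, 0.071 with upper-quartile factors, 0.034 with library size alone, 0.01 with edgeR's filter, 0.021 with no filter and 0.044 with offsets, *Mthfd1* 0.157 and *Aldh1l2* −0.016 with offsets, and *Mthfd1l* 0.001 with upper-quartile factors. For the difference between states, *Psat1* was 0.046 with library size alone and 0.126 with offsets, *Mthfd1* 0.126 with offsets and *Mthfd2* 0.014 with library size alone. With each library left out, *Aldh1l2* ranged from −0.157 to 0.094 in Neg EpiLCs against ESCs, from −0.081 to 0.239 in 3xKD EpiLCs against ESCs and from −0.066 to 0.291 for the difference, *Phgdh* from −0.021 to 0.026 in 3xKD EpiLCs against ESCs and *Psph* from −0.064 to 0.117 for the difference. *Aldh1l2* was limited by depth, with at most 55 counts in a library.

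Deviations from group means correlated between −0.268 and 0.206 (median 0.04) for same-numbered libraries of different groups. For libraries of different numbers r was between −0.326 and 0.399 (median −0.023). With 3 libraries per group these values cannot show whether equal replicate numbers mark matched libraries. With the number as a block the log2 fold change of *Phgdh* was 1.083 in ESCs and 1.146 in EpiLCs, 4 genes were higher and 1 lower in 3xKD ESCs, and no call on the 9 genes changed.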
